A study of Mus musculus with 9 samples.

Results

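The genes described here encode the receptor tyrosine kinases FLT3, KIT and CSF1R, the subunits of the receptors for granulocyte-macrophage colony-stimulating factor (GM-CSF) and interleukin-3 (Csf2ra, Il3ra, Csf2rb and Csf2rb2), and the ligands M-CSF (Csf1) and GM-CSF (Csf2). They were taken by symbol, 9 genes of the 45535 rows that carry a symbol. Each of the 9 matched exactly 1 row, and all 9 passed the filter on low values used for testing. The samples were lung dendritic cells of C57/BL6j mice that had received bleomycin, a drug used to injure the lung, for 7 days. All samples share that treatment. Cells that carry the integrin CD103 were drawn from collagenase-digested lungs on magnetic beads. RNA was taken directly from 5 samples (before culture, replicates 1 to 5, libraries B1 to B5). The other 4 were held for 18 h in RPMI that contained FBS (fetal bovine serum) and pen/strep (antibiotics) (after culture, replicates 1 to 4, libraries A1, A3, A4 and A5). No added cytokine is listed among the medium's components. The extraction note speaks of lung RNA and not of sorted cells. Neither the number or age of the mice behind a sample, nor whether samples are separate animals, is given in the labels, so p-values measure the spread between these samples.

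FLT3 and its ligand drive the production and upkeep of conventional dendritic cells from bone marrow precursors. GM-CSF acts on the CD103-positive subset in tissues such as the lung, through a ligand-specific alpha chain paired with a signalling beta chain. M-CSF, through CSF1R, supports monocytes and macrophages, and KIT is best known in blood stem cells and mast cells. The mouse carries 2 beta chain genes: Csf2rb encodes the common chain of the GM-CSF, interleukin-3 and interleukin-5 receptors, and Csf2rb2 a chain that serves interleukin-3.

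Csf2rb and Csf2rb2 are near copies, so their letters are shown before their values. They lie on chromosome 15 at chr15:78325752-78353847 (plus strand) and chr15:78282507-78305721 (minus strand) in GRCm38, 20030 bases apart with 0 annotated genes between them. Their coding sequences of 2688 and 2634 bases matched at 95.2% of the 2628 aligned positions in the GENCODE M21 transcripts. The stretch of 60 coding bases that differs most starts at coding base 304 in Csf2rb and 307 in Csf2rb2, and capitals mark the 13 bases that differ.
Csf2rb: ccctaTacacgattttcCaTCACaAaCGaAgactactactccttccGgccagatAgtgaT
Csf2rb2: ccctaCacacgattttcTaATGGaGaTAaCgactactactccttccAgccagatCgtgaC
The longest stretch that is identical in both runs from coding base 2083 to 2324 in either gene and holds 242 bases.
Csf2rb and Csf2rb2: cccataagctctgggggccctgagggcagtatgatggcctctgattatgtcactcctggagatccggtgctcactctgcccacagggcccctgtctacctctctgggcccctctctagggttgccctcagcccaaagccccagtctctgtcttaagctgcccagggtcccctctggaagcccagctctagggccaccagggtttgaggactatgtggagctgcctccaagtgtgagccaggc
Reads from such a stretch cannot be assigned to 1 gene by sequence. Of the 50-base windows of the Csf2rb transcript, 18.4% also occur in Csf2rb2, and 19.0% of those of Csf2rb2 occur in Csf2rb. How the authors' counting treated such reads is not given in the sources used here, so the level of each beta chain gene is uncertain to that extent and their sum is given as well.

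Depth ran from 14.7 to 35.3 M reads in named rows, and a single read stood for 0.758 to 1.79 normalized counts. The labelled cell type was checked against 8 markers of type 1 conventional dendritic cells, all read in every sample. After culture 7 of the 8 were lower, among them Itgae (CD103), Xcr1 and Clec9a, while Batf3 was higher. All 8 markers of mature dendritic cells were higher, and Ccr7 went from 7918 ± 372 to 53005 ± 2238 (SD, n = 5 and n = 4). Marker lists of neutrophil, endothelial, fibroblast and alveolar epithelial genes were lower in every tested gene. Of 8 markers of type 2 conventional dendritic cells (cDC2), 6 were lower, 1 was higher and 1 was neither. Of 8 NK cell markers 7 were lower and 1 was neither. Libraries B4 and A4 stood apart from the others of their groups in several of the genes below. Each held the lowest summed level of 14 monocyte and macrophage markers and of the 8 cDC2 markers in its group. Each also held the highest sum of 8 alveolar epithelial markers (44659 in B4 and at most 32717 in the others before culture, 11074 in A4 and at most 8154 in the others after it) and of 8 NK cell markers (3729 in B4 and 699 in A4). Results that rest on them are given with and without them. In bulk RNA, fewer cells of a type and less RNA per cell cannot be told apart.

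Levels are normalized read counts. Changes are log2 fold changes, after minus before, on log2(value + 1) with their standard error (SE), tested with limma across all genes and adjusted by the Benjamini-Hochberg method, with a threshold of 0.05. Of the 9 genes, 5 rose after culture (Flt3, Kit, Csf2rb, Csf2rb2 and Csf1), 1 fell (Csf2ra) and 3 did not pass the threshold (Csf1r, Il3ra and Csf2). Over all 18202 tested genes 68.8% passed, 34.2% as higher and 34.6% as lower, so the members' share of 66.7% is near the background. The groups' values did not overlap for 6 of the 9, against 57.3% of all tested genes.

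**Figure D1:**
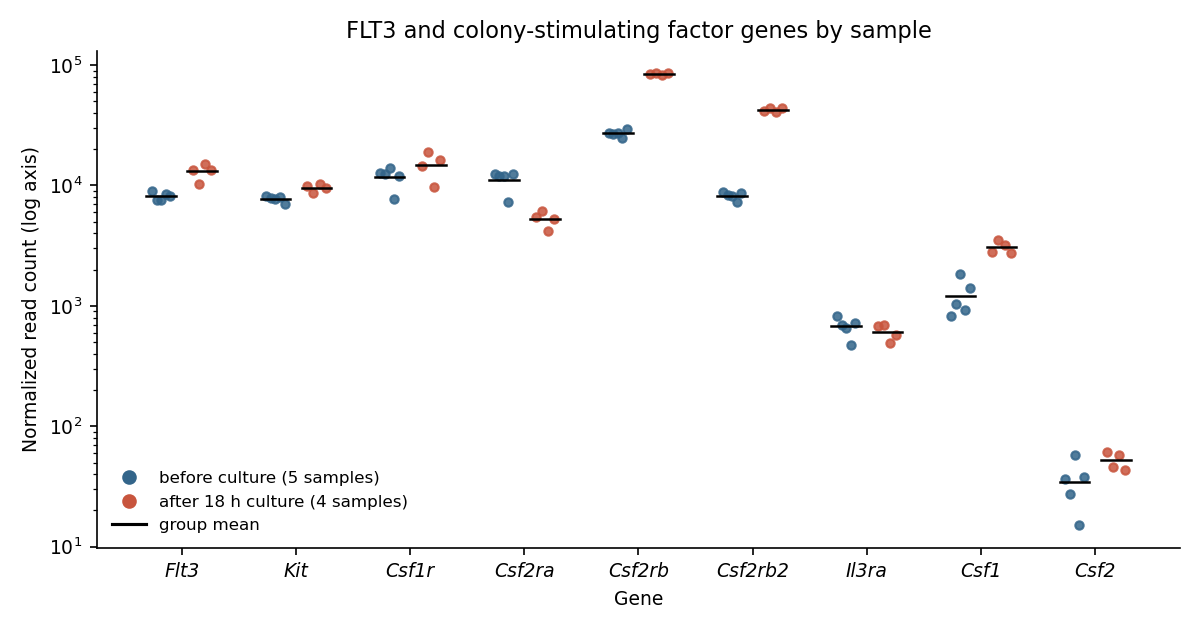
Normalized read counts (log axis) of the 9 genes in each sample before culture (5 points per gene) and after 18 h of culture (4 points), with the group mean as a line. Csf2rb and Csf2rb2 after culture sit at 82237 and above and at 40531 and above, Csf2ra lies lower after culture, and the groups overlap for Csf1r, Il3ra and Csf2.

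The beta chain genes changed most among the receptors. Csf2rb stood at 27408, 26811, 27095, 24933 and 29623 before culture and at 84125, 85414, 82237 and 85378 after it. All samples after culture were above all samples before it, and values within each group lay close together. The mean rose 3.10-fold, from 27174 ± 1674 to 84288 ± 1493 (SD, n = 5 and n = 4), or 1.64 on the log2 scale (SE 0.083, limma adjusted p = 1.37e-09). Of all tested genes, 6.23% had a larger rise.

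Csf2rb2, the chain that serves interleukin-3, was read at 8820, 8318, 8105, 7340 and 8705 before culture. After culture the 4 values were 41234, 43622, 40531 and 44323, which lie far above every value before culture. Its mean rose 5.14-fold, from 8257 ± 589 to 42428 ± 1829 (SD), or 2.36 on the log2 scale (SE 0.078, limma adjusted p = 2.32e-11). A larger rise was seen in 2.50% of tested genes. With both genes summed, the beta chain level went from 35431 ± 2188 to 126716 ± 3251 (SD), 3.58-fold higher (log2 fold change 1.84).

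The 2 copies did not rise by the same factor. Csf2rb2 made up 24.3, 23.7, 23.0, 22.7 and 22.7% of the summed counts before culture and 32.9, 33.8, 33.01 and 34.2% after it. The log2 ratio of Csf2rb2 to Csf2rb went from −1.72 ± 0.056 to −0.99 ± 0.040 (SD), a shift of 0.73 (p = 0.0159 by an exact permutation test, two-sided, where 0.0159 is the lowest p that 5 against 4 samples permit, and 0.0238 adjusted over the 3 ratios tested). The groups did not overlap in this ratio.

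The alpha chain of the GM-CSF receptor moved the other way. Csf2ra, at chr19:61223957-61228429 (minus strand, 12 exons in its main coding transcript), stood at 12483, 12042, 11881, 7267 and 12394 before culture and at 5436, 6114, 4161 and 5310 after it. The low value before culture is that of library B4, which still lies above all samples after culture. The mean fell from 11213 ± 2220 to 5255 ± 810 (SD), 2.13-fold lower, and the log2 difference was −1.08 (SE 0.156, limma adjusted p = 3.63e-05). Without library B4 the change was −1.23, and without both B4 and A4 it was −1.12. The main Csf2ra transcript is 1849 bases long with a GC content of 61.55%, and once GC content and transcript length had been regressed out of every sample by a smooth curve, the change was −0.36 (limma adjusted p = 0.0129). That correction shifted the median change of all tested genes from 0.0065 to 0.13.

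The ratio of alpha to common beta chain therefore changed more than either gene. The log2 ratio of Csf2ra to Csf2rb was −1.13, −1.15, −1.19, −1.78 and −1.26 before culture and −3.95, −3.80, −4.30 and −4.01 after it. The groups were separated by more than their own spread, also in library B4, which had the lowest ratio before culture. The mean difference of −2.71 is a 6.56-fold lower ratio (exact two-sided permutation test, p = 0.0159, adjusted over the 3 ratios 0.0238). With the GC and length correction it was −2.46 with the same p.

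**Figure D2:**
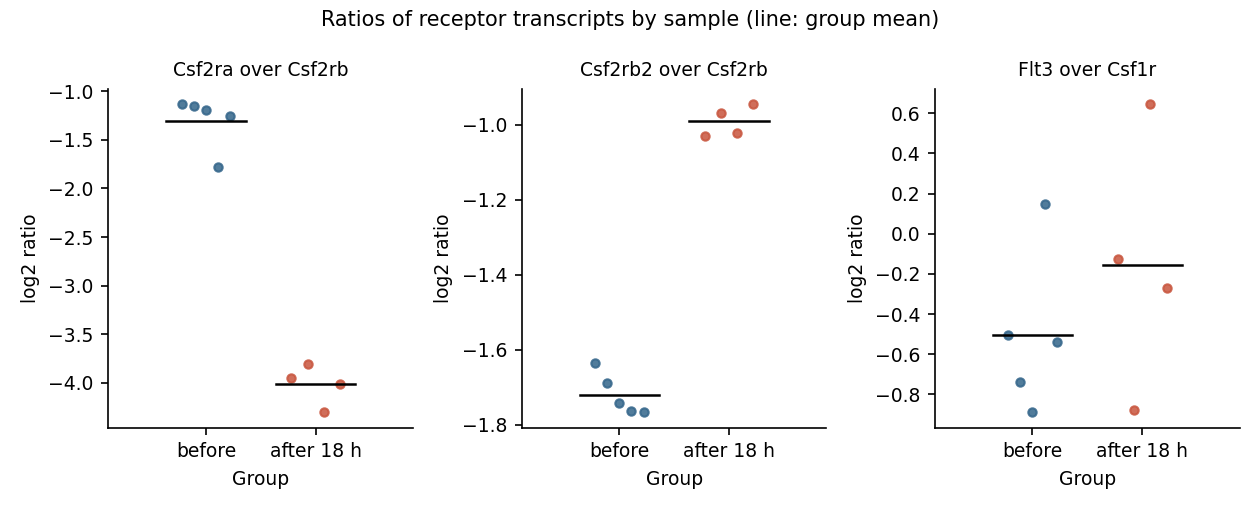
Log2 ratio of normalized counts in each sample for Csf2ra over Csf2rb, Csf2rb2 over Csf2rb and Flt3 over Csf1r, with the group mean as a line (5 samples before, 4 after culture; the y axes differ). The groups are apart in the left and middle panels, where the means differ by −2.71 and 0.73, and overlap in the right panel.

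Il3ra, the alpha chain for interleukin-3 (chr14:14346275-14356011, plus strand), was the receptor gene with the lowest level. Its counts were 823, 697, 660, 475 and 727 before culture and 676, 697, 495 and 577 after it, and the ranges overlapped. The lowest value of each group was again in B4 and A4. The log2 difference was −0.14 (SE 0.148, limma adjusted p = 0.430), and without B4 and A4 it was −0.16 (limma adjusted p = 0.164). With the GC and length correction its sign turned, to 0.54 (limma adjusted p = 0.000779), and 60.7% of the bases of its main transcript are G or C. No direction is given for Il3ra.

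Flt3 (chr5:147330741-147400489, minus strand, 24 exons) encodes the receptor through which dendritic cell numbers are set. Counts before culture were 9008, 7523, 7555, 8516 and 8250. After culture they were 13411, 10371, 15155 and 13389, and the lowest of these, in library A3, is above the highest value before culture. The mean rose 1.60-fold, from 8170 ± 638 to 13082 ± 1988 (SD), or 0.67 on the log2 scale (SE 0.104, limma adjusted p = 6.70e-05). Leaving out single replicates gave changes between 0.59 and 0.78.

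An annotated antisense gene, Gm26597, overlaps Flt3 on the other strand. Its counts went from 63.7 ± 27.0 to 240.0 ± 97.0 (SD, log2 fold change 1.90, SE 0.306, limma adjusted p = 9.43e-05). Of the 50-base windows of the main Flt3 transcript, 0% occur in a transcript of another gene, with both strands searched. Whether counting used strand is not given in the sources used here, so reads from elsewhere in the overlap cannot be assigned to a strand. The antisense counts are small beside those of Flt3.

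Kit (chr5:75574916-75656722, plus strand, 21 exons), the stem cell factor receptor, was well read in these preparations. Its counts were 8218, 7826, 7725, 8088 and 6974 before and 9906, 8684, 10205 and 9511 after culture. The groups did not overlap, though the gap between them was narrow. The rise was 1.23-fold (7766 ± 485 against 9576 ± 660, SD), and the log2 difference was 0.30 (SE 0.076, limma adjusted p = 0.00295). Kit is also carried by mast cells. Of 10 mast cell and basophil markers, Hdc, which other blood cells express too, fell from 2874 ± 702 to 37.8 ± 12.6 (SD). The other 9 summed to 55.0 to 93.7 before and 10.6 to 65.5 after culture, where Kit stood at 6974 and above. The highest of them were Cma1, which fell from 26.2 to 3.98 on average, and Cpa3, at 22.6 and 12.1 (limma adjusted p = 0.0513, and 0.0071 with the GC and length correction), while Mrgprb2 was at 0 in all samples before culture. The part of such cells in the change of Kit was not tested.

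**Figure D3:**
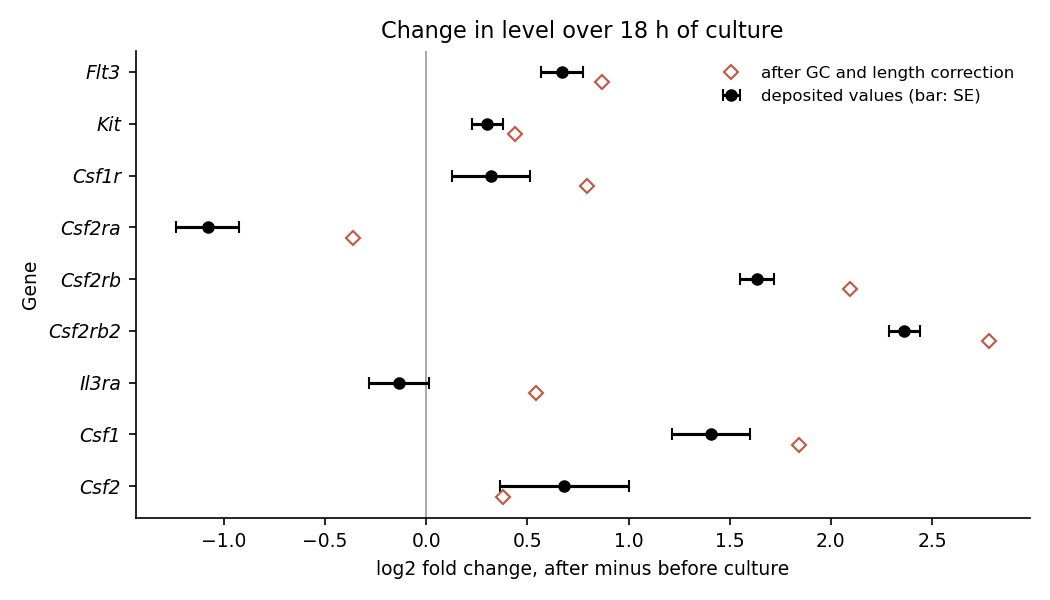
Log2 fold change of each gene, after minus before culture, from the deposited values (filled points, bars are the standard error) and after correction for GC content and transcript length (open diamonds). Csf2rb2 at 2.36 and Csf2rb at 1.64 lie highest, Csf2ra is negative at −1.08 and −0.36, and Il3ra lies on either side of 0 at −0.14 and 0.54.

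Csf1r, the M-CSF receptor (21 exons on chromosome 18), varied more between samples than between groups. Counts were 12794, 12544, 13998, 7688 and 11980 before culture and 14638, 19036, 9698 and 16159 after it. Library B4 was lowest before and A4 lowest after culture, and A4 lay below 4 of the 5 samples before culture. The means were 11801 ± 2414 and 14883 ± 3908 (SD), or 0.32 on the log2 scale (SE 0.193, limma adjusted p = 0.153). Without B4 the change was 0.17 (limma adjusted p = 0.346), without A3 it was 0.19 (0.398), without A4 it was 0.51 (0.0133), without both B4 and A4 it was 0.37 (0.00245), and with the GC and length correction 0.79 (0.00109), so the call for Csf1r depends on these choices. Of the 50-base windows of its transcript, 17.7% also occur in Hmgxb3, a gene on the opposite strand whose counts were 1253 ± 103 before and 1387 ± 124 after culture (SD).

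Markers of monocytes and macrophages, which carry CSF1R, also varied from sample to sample. The summed level of 14 such markers was lowest in B4 before culture (139351 in a range up to 200994) and lowest in A4 after culture (163798 in a range up to 302531). After culture the 4 samples had the same order in this sum and in Csf1r, with A3 highest. Before culture the orders differed: B2 led in the sum and B3 in Csf1r, and both shared only the lowest places, B5 and B4. The sum is dominated by Lyz2, a lysozyme gene, which rose. Without it the other 13 markers summed to 50496 to 87981 before and 30102 to 60824 after culture, and B4 and A4 were still lowest. Over the whole list 3 genes were higher (Cd68, Mertk and Lyz2), 7 lower and 4 did not pass, and none of the 14 was at 0. The part of these cells in the level of Csf1r was not tested.

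**Figure D4:**
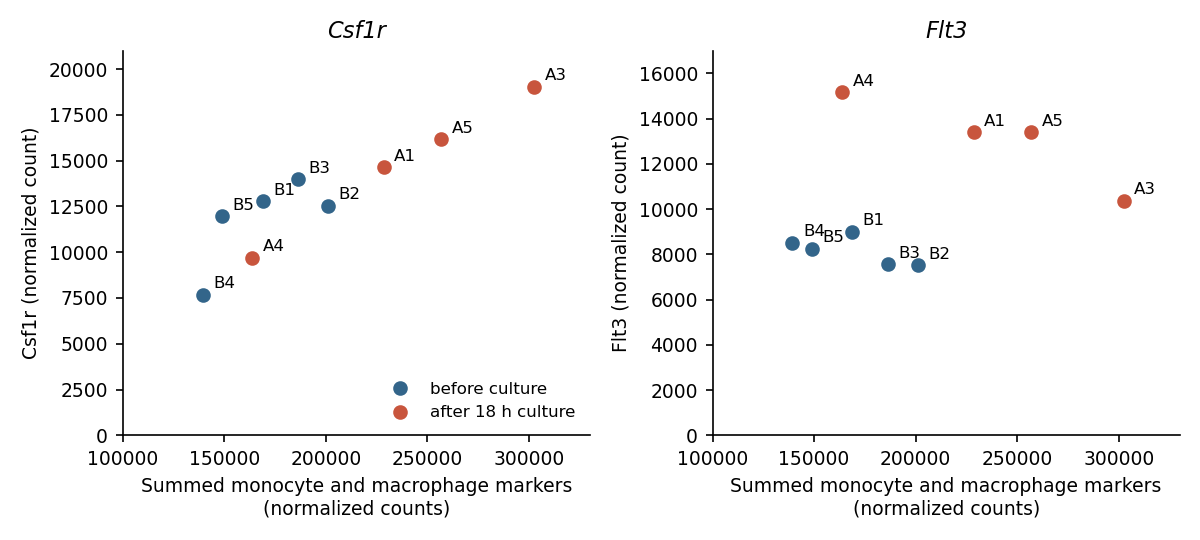
Csf1r (left) and Flt3 (right) normalized counts against the summed normalized counts of 14 monocyte and macrophage markers in the same library (the x axis does not start at 0), with library names beside the points. A4 is lowest and A3 highest in Csf1r after culture, while for Flt3 A4 is highest at 15155 and A3 lowest at 10371.

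Flt3 showed the opposite order after culture, with A4 highest and A3 lowest. The log2 ratio of Flt3 to Csf1r was −0.51, −0.74, −0.89, 0.15 and −0.54 before and −0.13, −0.88, 0.64 and −0.27 after culture. The groups overlapped, and the mean difference of 0.35 did not pass (exact two-sided permutation test, p = 0.349, the same after adjustment over the 3 ratios). So a difference between the changes of these 2 receptors was not shown.

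Of the ligands, Csf1 rose. Csf1, at chr3:107741048-107760469 (minus strand, 9 exons), stood at 823, 1042, 1847, 924 and 1403 before and at 2798, 3534, 3227 and 2764 after culture. All values after culture were above all values before it. The mean went from 1208 ± 419 to 3081 ± 368 (SD), 2.55-fold higher, and the log2 difference was 1.41 (SE 0.193, limma adjusted p = 2.20e-05).

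Csf2, the GM-CSF gene (chr11:54247271-54249667, minus strand, 4 exons), was barely read, with 18 to 69 reads a sample. Counts were 36.2, 27.2, 57.2, 15.1 and 37.6 before and 60.9, 46.2, 58.2 and 43.3 after culture, and the groups overlapped. The log2 fold change of 0.68 (SE 0.318) did not pass (limma adjusted p = 0.0708). It did without replicate 3 before culture, at 0.89 (limma adjusted p = 0.0185), and leaving out other replicates gave values down to 0.43. The change was 0.38 with the GC and length correction (limma adjusted p = 0.334) and 0.37 without B4 and A4 (0.245). Of the 50-base windows of the Csf2 transcript, 6.39% also occur in Gm12223, an antisense gene. Genes of T cells and innate lymphoid cells, which can make GM-CSF, were read in both groups, and their 12 markers summed to 11716 to 14462 before and 21318 to 25485 after culture. Without Il7r the other 11 summed to 9439 to 11165 before and 8900 to 11213 after culture, so the groups overlapped. Of that list 3 rose, led by Il7r, 4 fell and 5 did not pass. The part of such cells in the Csf2 level was not tested.

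To compare genes with each other, levels were divided by the length of each gene's main coding transcript. Before culture the order per kb was Csf2ra (6064 ± 1201), Csf2rb (5546 ± 342), Csf1r (2510 ± 514), Flt3 (2234 ± 174), Csf2rb2 (1742 ± 124), Kit (1489 ± 93.0), Il3ra (292 ± 55.1), Csf1 (289 ± 100.4) and Csf2 (43.3 ± 19.4), as normalized counts per kb (SD, n = 5). Neighbours whose values overlapped were Csf2ra and Csf2rb, Csf1r and Flt3, Csf2rb2 and Kit, and Il3ra and Csf1. After culture Csf2rb (17202 ± 305) and Csf2rb2 (8951 ± 386) led, each apart from the next. They were followed by Flt3 (3577 ± 543), Csf1r (3166 ± 831) and Csf2ra (2842 ± 438), which overlapped with their neighbours in that order, and then by Kit (1837 ± 126.5), Csf1 (738 ± 88.2), Il3ra (264 ± 40.3) and Csf2 (65.2 ± 10.9; SD, n = 4). Csf2ra thus went from the top of the order to place 5, and Csf2rb2 from place 5 to place 2. These levels are not corrected for GC content. With the GC and length correction the log2 change of Csf2ra was −0.36 in place of −1.08. That of Csf2rb2 was 2.78 in place of 2.36, so the places may depend on GC content.

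Genes whose level across the 9 samples was most like that of 3 of the receptors were found by Pearson's r of log2(value + 1) among 11785 genes with a mean of at least 100. All 9 samples enter, so r reflects the difference between groups as well as the spread within them. For Flt3 they were Grk3 (r = 0.991), a G protein-coupled receptor kinase, Gm45515 (0.990) and 5430434F05Rik (0.989). For Csf2rb they were Csf2rb2 (0.999), which shares sequence with it, Gpc1 (0.999), a glypican, and Rassf2 (0.999). For Csf1r they were Slc25a44 (0.984), Stx4a (0.983) and Lgmn (0.981), a lysosomal protease, and none of these 3 passed the threshold for a difference between groups.

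The start regions of 3 genes that moved are shown with short motifs of factors known to act in dendritic cells. They are the 250 bases before the RefSeq start site (GRCm38.p6), a table that gave 7 of the 9 genes. Motifs were searched on both strands, namely GAGGAA (the core bound by PU.1 and related ETS factors), TTCNNNGAA (STAT factors), TGANTCA (AP-1) and the NF-kB motif (GGG, any 2 bases, TTTCC), and capitals mark every match. Csf2ra, which fell, is chr19:61228419-61228668 (minus strand), Csf2rb2, which rose, is chr15:78305722-78305971 (minus strand), and Csf1, which rose, is chr3:107760470-107760719 (minus strand).
Csf2ra: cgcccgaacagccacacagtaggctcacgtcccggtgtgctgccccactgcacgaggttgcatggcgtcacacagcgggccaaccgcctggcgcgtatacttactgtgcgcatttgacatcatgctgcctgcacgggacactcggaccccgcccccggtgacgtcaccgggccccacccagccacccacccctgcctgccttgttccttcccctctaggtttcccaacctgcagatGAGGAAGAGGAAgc
Csf2rb2: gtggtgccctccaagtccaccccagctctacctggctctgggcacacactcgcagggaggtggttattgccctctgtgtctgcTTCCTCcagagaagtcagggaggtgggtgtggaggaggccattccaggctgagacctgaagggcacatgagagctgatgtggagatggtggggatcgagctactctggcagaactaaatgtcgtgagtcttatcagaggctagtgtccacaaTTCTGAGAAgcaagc
Csf1: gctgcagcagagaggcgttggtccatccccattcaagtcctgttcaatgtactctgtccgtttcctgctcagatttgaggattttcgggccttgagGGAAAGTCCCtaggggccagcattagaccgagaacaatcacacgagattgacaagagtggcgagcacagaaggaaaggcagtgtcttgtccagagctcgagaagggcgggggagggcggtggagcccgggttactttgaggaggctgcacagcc
Csf2ra held GAGGAA at 2 adjoining places, Csf2rb2 held 1 GAGGAA match (on the other strand) and 1 TTCNNNGAA match, and Csf1 held 1 NF-kB match (on the other strand). Of the other 4 promoters in the table, Kit held 1 GAGGAA match and Flt3, Il3ra and Csf2 held none of the 4 motifs. For Csf2 the bases searched were chr11:54249900-54250149 (minus strand), while its GENCODE gene starts at 54249667. The bases next to that start were thus not searched, and nothing is said of motifs there. Among 27025 promoters of the same length, GAGGAA occurred in 23.1%, TTCNNNGAA in 7.18%, TGANTCA in 6.87% and the NF-kB motif in 1.4%. A match describes the letters only.

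Genes around these receptors were read in 6 lists. The counts of each list stand against all tested genes, of which 34.2% were higher and 34.6% lower. Of 10 ligands and sister receptors 9 could be tested, and 5 were lower and 0 higher after culture (median −0.83, against 0.0065 over all tested genes). Csf3r, the receptor for granulocyte colony-stimulating factor, fell from 5352 ± 1265 to 965 ± 245 (SD, log2 fold change −2.48), and Kitl, the KIT ligand, from 912 ± 232 to 309 ± 60.3 (−1.54). Il34, the second ligand of CSF1R, fell from 29.2 ± 13.9 to 10.5 ± 2.57 (−1.31) and the stromal receptor Pdgfrb from 322 ± 91.8 to 135 ± 31.6 (−1.23). Pdgfra was lower as well (800.4 ± 165 against 569 ± 188, limma adjusted p = 0.0352), with overlapping groups, and did not pass in 5 of the 9 fits that left out a replicate, with limma adjusted p up to 0.136. The call for Pdgfra was also lost with the GC and length correction (limma adjusted p = 0.149), with upper quartile scaling (0.0743), with quantile normalization (0.05) and without B4 and A4 (0.0545). The call for Il34 was lost with the GC and length correction (limma adjusted p = 0.0573).

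Flt3l, the FLT3 ligand, did not pass (275 ± 16.6 against 234 ± 43.6, SD, limma adjusted p = 0.102), and its sign turned with the GC and length correction, to 0.21. It did pass as lower without replicate 3 after culture, library A4 (log2 fold change −0.33, limma adjusted p = 0.0449), and without both B4 and A4 (−0.35, 0.0362). Il5, Csf3 and Il5ra stayed under 55 normalized counts on average and did not pass. Il3 was under the filter, with a mean of 0.358 before and 2.28 after culture. The mean after culture came mostly from library A3, as the Il3 values were 0, 8.34 (A3), 0 and 0.76. Without replicate 4 before culture, library B4, Il5 passed as lower (−1.23, limma adjusted p = 0.0300). It also did without both B4 and A4 (−1.37, limma adjusted p = 0.0256). Markers of neutrophils, which carry the receptor encoded by Csf3r, were lower in all 8 tested genes and summed to 10006 to 18468 before and 289 to 676 after culture. Markers of fibroblasts, which make Kitl and carry PDGF receptors, and of endothelial cells, which make Kitl, were lower in 8 of 8 genes each. Their part in these falls was not tested.

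**Figure D5:**
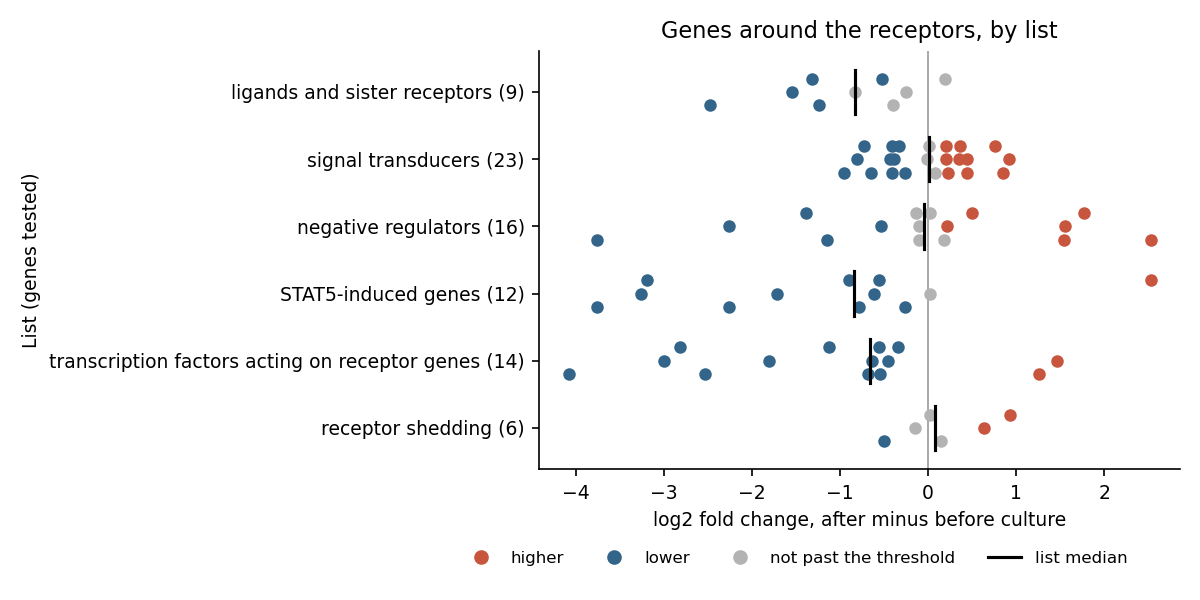
Log2 fold changes, after minus before culture, of the tested genes of 6 lists around the receptors, coloured by whether they passed as higher or lower (limma adjusted p under 0.05) or did not pass, with a bar at each list's median. The medians of ligands and sister receptors, STAT5-induced genes and transcription factors lie at −0.83, −0.84 and −0.66, and those of the other 3 lists at 0.011, −0.042 and 0.082.

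Kinases and adaptors that carry signals from these receptors were split, with 10 of 23 higher, 10 lower and a median of 0.011. With the GC and length correction 13 were higher and 4 lower. Jak2, the kinase bound to the beta chain, rose from 11097 ± 505 to 18840 ± 1614 (SD, log2 fold change 0.76, limma adjusted p = 1.40e-06), Stat3 from 12822 ± 1110 to 23131 ± 893 (0.85) and the phosphoinositide 3-kinase subunit Pik3r1 from 8484 ± 436 to 16003 ± 914 (0.92). The catalytic subunit Pik3cd fell from 6807 ± 745 to 3876 ± 218 (−0.81), and the Src-family kinases Lyn (7888 ± 309 to 4133 ± 809) and Fyn (4620 ± 128 to 2793 ± 83.3) fell as well.

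Negative regulators held 6 higher and 5 lower genes of 16 (median −0.042). Socs2 rose from 912 ± 75.5 to 5248 ± 361 (SD, log2 fold change 2.53, limma adjusted p = 1.75e-11), the ubiquitin ligase gene Cblb from 4065 ± 363 to 11845 ± 1130 (1.54) and the adaptor gene Dok1 from 628 ± 70.8 to 1837 ± 103 (1.55). Socs3 fell from 19060 ± 2672 to 1420 ± 313 (−3.76) and the phosphatase gene Inpp5d from 16340 ± 736 to 7436 ± 1099 (−1.15). Socs1 did not pass (1222 ± 180 against 1231 ± 93.7), and Cish is described with the next list.

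Genes known to be induced by STAT5, the factor activated by GM-CSF receptors, were mostly lower: 10 of 12 fell and 1 rose, with a median of −0.84, where 34.6% of all tested genes were lower. Cish, a feedback inhibitor, stood at 4827, 4706, 4582, 4025 and 4763 before culture and at 1153, 1093, 1070 and 620 after it. The groups were far apart, and the log2 difference was −2.26 (SE 0.151, limma adjusted p = 1.95e-08). Ccnd1, a cyclin, fell from 4106 ± 285 to 447 ± 4.21 (SD, −3.19) and the cytokine gene Osm from 7532 ± 1803 to 777 ± 160 (−3.26). The exception was Socs2, which is also on the lists of negative regulators and of mature dendritic cell markers. The list shares Cish, Socs1, Socs2 and Socs3 with the negative regulators, and several of its genes also answer to other signals.

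Of 14 transcription factors with known action on the receptor genes, 12 fell and 2 rose (median −0.66). Over all tested genes 34.6% were lower and 34.2% higher, with a median of 0.0065. Gata2, which acts on Kit in progenitors and mast cells, fell from 815 ± 129 to 48.1 ± 12.7 (SD, log2 fold change −4.08), while Kit rose. Whether the fall of Gata2 and the rise of Kit took place in the same cells was not tested. Ets2 fell from 8774 ± 1342 to 1267 ± 364 (−2.82) and Runx3 from 8366 ± 1307 to 2378 ± 74.9 (−1.80). Mitf, known to act on Kit in mast cells and melanocytes, rose from 1006 ± 264 to 2761 ± 558 (1.47) and Myb from 431 ± 110 to 1060 ± 369 (1.26). Spi1, which encodes PU.1, was 0.34 lower on the log2 scale with overlapping groups (limma adjusted p = 0.0206).

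Among 6 genes of proteases that cut receptors at the membrane, their cofactors and their subunits, 2 rose and 1 fell (median 0.082). Adam10 rose from 4592 ± 308 to 8797 ± 1140 (SD, log2 fold change 0.93, limma adjusted p = 8.86e-07) and Adam17, the sheddase of CSF1R, from 2997 ± 197 to 4699 ± 706 (0.64, 6.69e-05). Rhbdf2, a cofactor of ADAM17, fell from 3824 ± 455 to 2712 ± 403 (−0.50, 0.00129) with overlapping groups. Its sign turned with the GC and length correction (0.12, limma adjusted p = 0.252). Ncstn, Psenen and Aph1a, which encode subunits of gamma-secretase, did not pass. Under that correction Ncstn (0.24, limma adjusted p = 0.0116) and Psenen (0.37, 0.00661) passed as higher, and 4 of the 6 genes were then higher and 0 lower. Psenen also passed without replicate 3 after culture (0.23, 0.0279) and without B4 and A4 (0.24, 0.0224). Aph1a passed as lower without replicate 2 after culture (−0.24, 0.0262).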

How the data were processed

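Total RNA was sequenced by a service company, per the labels. The deposited file is 1 table of genes by samples whose unit is a signal, normalized read counts that by their values are reads divided by 1 size factor per sample. The submitters' processing notes name DESeq2 and GRCm38, and the aligner, counter, annotation, filters and strandedness are not given in the sources used here. All values (100%) were whole multiples of 1 read within 0.01 reads, so whole reads per gene were recovered. The 3782 of 49317 rows without a symbol, which held 6.43 to 10.9% of reads before and 3.87 to 5.46% after culture, were left out of tests and depths.

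Named rows with a mean of at least 10 (18202) were taken to log2(value + 1) and fitted in R 4.3.3 by limma 3.58.1, with group as the only term, a mean-variance trend, two-sided tests and Benjamini-Hochberg adjustment. Fold changes on this scale understate the change of low genes, and a fold given for 1 gene is the ratio of group means. Ratios of 2 genes were compared by an exact two-sided permutation test. Coordinates, transcript lengths and GC content came from GENCODE M21 (GRCm38), a release that can differ from the authors' own, and promoters from RefSeq. The main coding transcript is the one with the longest coding sequence. The scripts were tested on simulated data. No molecular identifiers are named in the sources used here, and the spread between replicates was used for error.

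The genes and lists were chosen with earlier results of these data known, and 1 gene of a list is not reported here. Genes named beside the 9 are all genes of lists of at most 10, and up to 3 called genes with the smallest adjusted p per direction in longer lists, with those whose call 1 replicate decides where there are 3 or fewer. They also include the 2 highest of each marker list and the 3 most alike for Flt3, Csf1r and Csf2rb, and not all are printed. Batf3, Clec9a, Cma1, Itgae, Mertk, Mrgprb2, Socs1, Spi1, Xcr1 and the overlapping genes were named after their values were seen. Alternatives were a pseudocount of 0.5 or 8, dropping the filter or raising it to 50, scaling by upper quartile, TMM or quantiles, edgeR 4.0.16 and DESeq2 1.42.0 on recovered reads, a replicate block, a correction for GC content and length (values for 96.5% of tested genes), and each replicate left out. Leaving out B4 and A4 together, the correction applied to ratios, and marker sums without Lyz2, Il7r or Hdc were added after seeing the data.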

Additional observations from a re-analysis of the deposited data

Results flagged for a closer look

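Among 24 groups of values tested (9 genes and 3 ratios in 2 groups each), 2 held a sample far from the others, where chance flags about 1 in 20 groups. Csf2ra in library B4 stood at 7267 normalized counts, while the other 4 samples before culture lay between 11881 and 12483. The gap was 0.885 of the group's range. The log2 ratio of Csf2ra to Csf2rb in the same library was −1.78, against −1.26 to −1.13 in the others, with a gap of 0.810 of the range. Both share the Csf2ra value of that library.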

How the results depend on the processing

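The calls for Flt3, Kit, Csf2ra, Csf2rb, Csf2rb2 and Csf1 kept their direction and stayed past the threshold under every alternative run. Csf1r, not past the threshold at 0.32 (log2, limma), passed with upper quartile scaling (0.43), the GC and length correction (0.79), that correction with a replicate block by library number (0.82), the block alone (0.35) and without B4 and A4 (0.37). Leaving out single replicates gave 0.17 to 0.51. Csf2 passed with upper quartile scaling (0.79), quantile normalization (0.86) and a replicate block by title number (0.74), and ranged from 0.43 to 0.89 with single replicates left out. Il3ra turned positive with the correction (0.54) and with the correction and block (0.55). Other signs that turned with the correction, without and then with the block, were Flt3l (0.21 and 0.22), Il5ra (−0.11 and −0.073), Rhbdf2 (0.12 and 0.12), Aph1a (0.23 and 0.20) and Csf3 (0.044, without the block only). With single replicates left out Ncstn ran from −0.050 to 0.086.

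Among the lists, the correction, without and then with the block, gave signal transducers 4 and 5 lower genes (medians 0.29 and 0.29), negative regulators medians of 0.31 and 0.31, STAT5-induced genes 2 and 2 higher genes (medians −0.67 and −0.68), and receptor shedding 4 and 4 higher and 0 and 0 lower genes (medians 0.31 and 0.30). Ligands and sister receptors had 3 lower genes under the correction, and transcription factors 4 higher genes with the block added. Upper quartile scaling gave medians of 0.066 (negative regulators), −0.73 (STAT5-induced genes) and −0.55 (transcription factors). The median of ligands and sister receptors was −0.52 with a pseudocount of 8, −1.18 without B4 and A4, and −1.08 to −0.43 with single replicates left out. The same step gave negative regulators medians of −0.082 to 0.049 and receptor shedding 1 to 2 lower genes. The ratio of Csf2ra to Csf2rb ranged from −2.83 to −2.62 and that of Csf2rb2 to Csf2rb from 0.71 to 0.75. Without B4 and A4 they were −2.74 and 0.73. Their adjusted p rose to 0.0536 without a replicate after culture and to 0.0857 without B4 and A4, which is what the lowest exact permutation p of those sample numbers becomes after adjustment over the 3 ratios, so they say nothing of stability. Apart from the ratios, the cause of these shifts was not tested.

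Same-numbered samples did not pair clearly: their deviations from the group means correlated at 0.0807, 0.247, 0.349 and 0.0447 by library number and at 0.0807, 0.0796, −0.213 and −0.0403 by title number, so not every pair exceeded 0.1. By library number each sample after culture correlated best with its own number, and so did each sample before culture except B5, which correlated better with A1, and B2, which has no partner. This is a hint from the data, not the design. Of all genes 12524 were called without a block, 12836 with the block by library number and 11646 by title number. Csf2, with 18 to 69 reads a sample, is the most limited by depth of the 9, and Il3, Il5, Il34 and Csf3 were read less still.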
